A study of Mus musculus with 6 samples.

Results

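The genes described here are 34 genes of glucose metabolism: those for glucose import, the glycolytic enzymes, lactate production and export, the PFKFB regulators and the pentose phosphate pathway. They were taken by gene symbol from a list of pathway genes, and all 34 were among the 18046 genes in every file. RNA was sequenced from CD4+ T cells, naive when isolated from the spleens of C57BL/6 mice (labelled 3 weeks of age), that were activated through CD3 and CD28 for 3 days in a Th1-polarizing culture with vehicle (n = 3) or with 20 µM LPC (n = 3). Both groups therefore shared the activation and the polarization, and differed, per the labels, by the agent alone. The vehicle and the full name of LPC are not given in the labels, nor is it said whether replicate libraries are from different mice or wells; the p-values here therefore measure the spread between these libraries alone, and that spread may be technical. Expression is given as FPKM, a read-based unit scaled for gene length and for the library's total.

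Glycolysis splits glucose into pyruvate in the cytosol and yields ATP, and the pentose phosphate pathway branches from its first intermediate to make NADPH and ribose phosphate for nucleotides. Activated effector T cells are known for taking up large amounts of glucose and turning much of it into lactate even where oxygen is present. In such cells a few isoforms of each enzyme usually carry the flow, while others belong to muscle, brain or liver.

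The libraries had estimated depths of 19.0 to 19.25 M reads. LPC replicate 2 lay nearest to the vehicle libraries on the first principal component (3.03, against 10.84 and 21.10 for the other LPC libraries and -15.76 to -8.43 for vehicle). LPC replicate 3 had the highest FPKM sum (641026, against 556561 to 588274) and fewer genes listed at 0 than the others (17.9%, against 19.4% to 20.2%). The T cell label was matched by its markers: 8 T cell genes, among them Cd3e and Cd4, were listed at 91.2 to 653 FPKM in every library. None passed the threshold. Cd4 was lower in every LPC library (177, 170 and 144 FPKM) than in any vehicle library (185, 205 and 199; log2 change -0.27, limma adjusted p = 0.0875). Cd5 was higher in every LPC library, and the other T cell genes overlapped. Cd8b1 was listed at 10.6 to 14.2 FPKM while Cd8a was at most 0.33. The 5 B cell genes were listed at 0.63 or less and the 4 NK cell genes at 0.04 or less, with Ncr1 and Klra8 at 0 in all 6 libraries. The summed level of 8 myeloid and dendritic genes was 3.58 to 5.67 FPKM with vehicle and 3.37 to 4.93 with LPC, nearly all of it Cd68. The sum of 4 erythroid genes was below 1 FPKM in every library.

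With LPC, 9 of the 32 tested genes rose, 1 fell and 22 did not pass (limma, Benjamini-Hochberg adjusted p under 0.05 over all tested genes). The rises were spread over the pathway: the glucose transporter gene Slc2a1, the enzyme genes Pfkl, Tpi1, Gapdh, Eno1 and Pkm, the lactate exporter gene Slc16a3, and Pgls and Pgd of the pentose phosphate pathway. The fall was that of Eno2, the enolase isoform best known from neurons. Across all 10138 tested genes 5.82% rose and 7.91% fell, 13.7% in all, so that the share of rises among the members (28.1%) was above the background. Their share of falls (3.12%) rests on 1 gene, too few to set against the background. The members were chosen with earlier results of these data known, and no test of the set was run. The median log2 change, LPC minus vehicle on the log2(FPKM + 1) scale, was 0.16 for the members and -0.04 for all tested genes. After median centring, 646 genes of all those tested were higher and 571 lower, in place of 590 and 802, and 7 members rose and 1 fell.

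Single libraries moved the number of rises by more than 1.5 times: it was 3 without vehicle replicate 1 or vehicle replicate 2 and 4 without LPC replicate 1, while it was 6 without vehicle replicate 3 and 10 without LPC replicate 2 or LPC replicate 3. The share of rises among all tested genes was 2.22%, 2.38% and 3.02% without vehicle replicate 1, vehicle replicate 2 and LPC replicate 1, so that the rises of other genes became fewer as well, and it was 4.37%, 7.98% and 5.41% without vehicle replicate 3, LPC replicate 2 and LPC replicate 3. Eno2 fell in each of these fits. The rises were Slc16a3, Pgd and Pfkl in every one of the fits that left out a library, with other genes added in some of them. With no filter on low values, which tested 16899 genes, 2 members rose, Slc16a3 and Pgd, and Pfkl had a limma adjusted p of 0.0507. Of all genes tested in that fit 1.4% rose, against 5.82% with the filter, so that the rises of other genes became fewer as well. On the log2(FPKM + 1) scale, no member passed the study's further rule of a change over 2-fold. Of all tested genes, 0.148% passed it as rises and 0.0493% as falls. In the linear means Eno2 fell to 0.482 of its vehicle level, and its log2 change is smaller because of the added 1. With 0.1 added in place of 1, Eno2 passed the rule (log2 change -1.03, limma adjusted p = 0.00248). In bulk RNA, a change in the share of cells that express a gene and a change in the RNA per cell cannot be told apart.

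**Figure D1:**
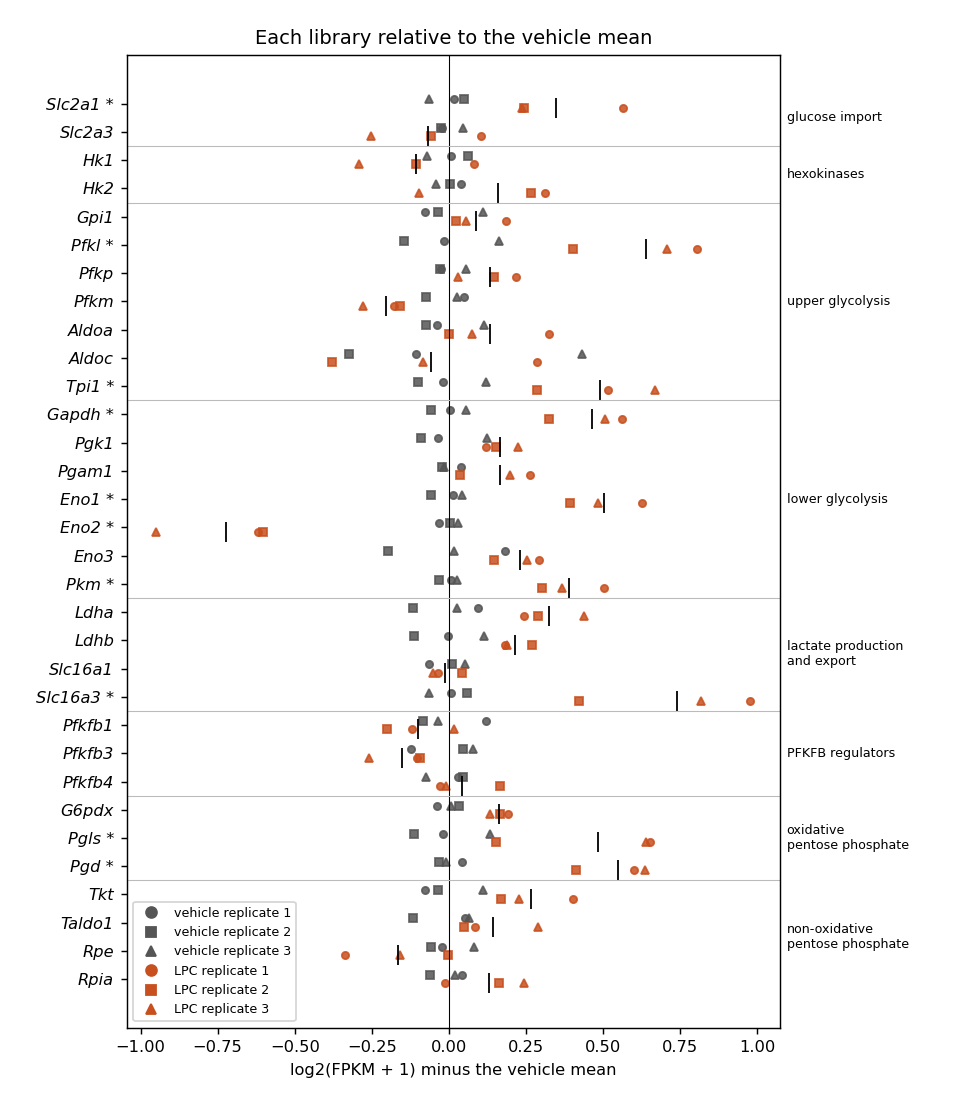
Each library's log2(FPKM + 1) minus the vehicle mean (x axis) for the 32 tested genes, grouped by role; grey points are the 3 vehicle and orange points the 3 LPC libraries, the black tick is the LPC mean, and an asterisk marks an adjusted p under 0.05. Slc16a3 lies farthest to the right, with a log2 change of 0.74, and Eno2 farthest to the left, at -0.72.

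Without regard to the test, every LPC library lay above every vehicle library for 13 of the 32 members (40.6%), against 13.7% of all tested genes. Those 13 were the 9 that rose and Ldha, Ldhb, G6pdx and Tkt, which did not pass. Every LPC library lay below every vehicle library for 2 members, Eno2 and Pfkm, against 20.7% of all tested genes; the groups did not overlap in either direction for 34.5% of all tested genes. The LPC libraries differed among themselves. Among the 9 genes that rose, LPC replicate 2 was the lowest LPC library for 8 and LPC replicate 1 the highest for 7, and the median of the 9 above the vehicle mean was 0.60, 0.33 and 0.64 on the log2 scale in LPC replicates 1, 2 and 3. LPC replicate 2 also lay nearest to vehicle on the first principal component. That component separates the groups and was computed with these genes among all those tested. The genes were themselves called for a group difference, so this match is not independent. Among the vehicle libraries, replicate 2 was likewise the lowest for 7 of the 9 genes and on that component (-15.76). Whether libraries of equal replicate number share an offset was not tested.

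Ldha had the most motif matches. It did not pass, although every LPC library lay above every vehicle library. The promoters of Slc16a3, Pgd and Pfkl, the 3 genes that rose in every one of those fits, are shown. Those of Ldha and of Eno1 and Eno2, paralogs that moved in opposite directions, are shown as well. They are the 250 bases before the first transcription start that the RefSeq promoter table of GRCm38.p6 lists for each gene, which for Slc16a3 and Ldha lies within the annotated gene span and not at its edge, 5′ to 3′ on the gene's strand: chr11:120948817-120949066 on the plus strand for Slc16a3, chr4:149166706-149166955 on the minus strand for Pgd, chr10:78009808-78010057 on the minus strand for Pfkl, chr4:150236458-150236707 on the plus strand for Eno1, chr6:124769674-124769923 on the minus strand for Eno2 and chr7:46845554-46845803 on the plus strand for Ldha. Capitals mark ACGTG or GCGTG on either strand, the core letters of the hypoxia response element that HIF factors recognise.
Slc16a3: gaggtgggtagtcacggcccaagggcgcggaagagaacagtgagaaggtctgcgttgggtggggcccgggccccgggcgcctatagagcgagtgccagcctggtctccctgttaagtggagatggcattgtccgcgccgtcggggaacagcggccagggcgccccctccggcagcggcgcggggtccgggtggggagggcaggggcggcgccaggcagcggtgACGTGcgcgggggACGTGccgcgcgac
Pgd: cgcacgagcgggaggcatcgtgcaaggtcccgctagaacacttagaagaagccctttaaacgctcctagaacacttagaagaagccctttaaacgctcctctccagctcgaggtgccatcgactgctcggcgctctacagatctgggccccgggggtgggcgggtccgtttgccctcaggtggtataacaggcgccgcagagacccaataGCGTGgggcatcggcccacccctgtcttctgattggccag
Pfkl: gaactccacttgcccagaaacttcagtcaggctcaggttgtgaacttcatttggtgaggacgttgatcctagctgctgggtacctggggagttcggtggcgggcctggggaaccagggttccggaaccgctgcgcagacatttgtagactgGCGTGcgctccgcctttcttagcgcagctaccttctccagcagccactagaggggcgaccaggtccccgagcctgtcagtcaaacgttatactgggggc
Eno1: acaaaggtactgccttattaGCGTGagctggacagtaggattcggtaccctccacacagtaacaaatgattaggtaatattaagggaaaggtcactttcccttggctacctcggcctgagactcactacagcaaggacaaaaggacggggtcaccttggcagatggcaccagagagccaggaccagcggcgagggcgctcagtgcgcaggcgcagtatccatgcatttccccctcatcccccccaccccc
Eno2: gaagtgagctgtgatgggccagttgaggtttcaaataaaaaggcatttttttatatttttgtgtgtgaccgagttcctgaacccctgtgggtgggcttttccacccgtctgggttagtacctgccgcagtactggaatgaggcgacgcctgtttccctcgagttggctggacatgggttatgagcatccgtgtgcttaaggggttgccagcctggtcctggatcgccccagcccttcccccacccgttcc
Ldha: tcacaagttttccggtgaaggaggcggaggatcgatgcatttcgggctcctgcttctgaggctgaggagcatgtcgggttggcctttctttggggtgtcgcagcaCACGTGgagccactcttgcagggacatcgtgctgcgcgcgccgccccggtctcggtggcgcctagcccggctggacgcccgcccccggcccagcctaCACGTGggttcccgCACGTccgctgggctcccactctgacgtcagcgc

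Slc16a3 held 2 matches, which began 27 and 14 bases before the start, Pgd held 1 at 40 bases, Pfkl 1 at 99 bases and Eno1 1 at 230 bases. The Eno2 window held none. Ldha held 5, of which 4 belonged to 2 copies of CACGTG, the E-box that Myc and the carbohydrate response factors recognise; CACGTG reads the same on both strands and holds ACGTG on each. A window was given for 33 of the members (Slc2a3 had none). ACGTG or GCGTG stood in 25 of these 33 windows, in 7 of 9 of the genes that rose and in 18 of the 24 others. It stood in 58.9% of the 8244 windows of tested genes and in 38.6% of all 27025 windows. CACGTG stood in 4 member windows, none of them of a gene that rose, against 8.8% of windows of tested genes. A match is a description of the sequence only.

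Glucose enters T cells through facilitative transporters, of which Slc2a1 (GLUT1) is induced on activation and Slc2a3 (GLUT3) has a higher affinity. Slc2a1, on chromosome 4 at 119108745 to 119137330, was listed at 44.1, 45.1 and 41.6 FPKM with vehicle and at 64.9, 51.8 and 51.5 with LPC. All LPC libraries were above all vehicle libraries, with LPC replicate 1 apart from the other LPC libraries. The change on the log2 scale was 0.35 (SE 0.10, limma adjusted p = 0.0367). The call was lost when vehicle replicate 1 (adjusted p = 0.114), 2 (0.0786) or 3 (0.102) or LPC replicate 1 (0.119, log2 change 0.24) was left out, and under quantile normalization (0.0604). Slc2a3 averaged 11.2 ± 0.347 FPKM in vehicle and 10.7 ± 1.44 in LPC libraries (SD, n = 3 each), and the groups overlapped. Slc2a1 supplied 78.1% to 80.4% of the summed FPKM of the pair with vehicle and 82.8% to 84.7% with LPC, ranges that did not overlap.

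Hexokinases trap glucose in the cell by phosphorylating it. Hk1, the form found in most tissues, was listed at 79.1, 82.2 and 75.0 FPKM with vehicle and 83.4, 73.0 and 64.1 with LPC, and Hk2, the inducible form, at 70.0, 68.2 and 66.1 with vehicle and 84.7, 82.1 and 63.6 with LPC. Neither level passed (log2 changes -0.11 and 0.16), and for both genes LPC replicate 3 was the lowest of all 6 libraries. Hk2 passed without LPC replicate 3 (log2 change 0.29, limma adjusted p = 0.0345). As a share of the family, Hk2 made up 45.3% to 47.0% with vehicle and 49.8% to 52.9% with LPC, so that Hk1 held the larger share in every vehicle library but in only 1 of the LPC libraries, replicate 3. Hk3, which is known from myeloid cells, was at most 0.07 FPKM in any library and stayed under the filter on low values.

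In upper glycolysis, phosphofructokinase commits the sugar to the pathway, aldolase splits it and triose phosphate isomerase interconverts the products. Pfkl, the liver-type subunit (chromosome 10, 77986947 to 78009807), was listed at 19.6, 17.8 and 22.3 FPKM with vehicle and at 35.4, 26.5 and 33.0 with LPC. The groups were clearly separated and the log2 change was 0.64 (SE 0.12, limma adjusted p = 0.0044). Pfkp, the platelet-type subunit and the most abundant of the 3, averaged 114 ± 3.94 FPKM in vehicle and 125 ± 8.19 in LPC libraries (SD, n = 3 each) and did not pass (0.13, interval -0.06 to 0.32). Pfkm, the muscle type, was listed at 8.69, 7.89 and 8.54 FPKM with vehicle and 7.28, 7.40 and 6.73 with LPC; each LPC library was lower, but the difference did not pass (-0.20, adjusted p = 0.164). The makeup of the family differed without overlap for each of its subunits: Pfkl went from 14.0% ± 0.979 to 19.3% ± 2.41 of the summed FPKM, while Pfkp went from 80.1% ± 1.00 to 76.3% ± 2.21 and Pfkm from 5.89% ± 0.271 to 4.36% ± 0.238. These shares are descriptions without a test. They are not independent, since a larger share of Pfkl lowers those of Pfkp and Pfkm.

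Tpi1 (chromosome 6, 124810586 to 124814158), which encodes triose phosphate isomerase, was listed at 360, 340 and 397 FPKM with vehicle and at 522, 445 and 580 with LPC. It rose by 0.49 on the log2 scale (SE 0.11, limma adjusted p = 0.0135), a call lost when vehicle library 1 (adjusted p = 0.0656) or 2 (0.0631) or LPC replicate 1 (0.055) was left out. The first enzyme of this stretch, the isomerase encoded by Gpi1, was listed at 346 ± 23.9 and 368 ± 22.5 FPKM and overlapped between groups. Aldoa, the main aldolase at over 99% of that family's FPKM, was the second most abundant member; it was listed at 1533, 1493 and 1702 FPKM with vehicle and at 1972, 1575 and 1656 with LPC. Only LPC replicate 1 lay above all vehicle libraries, and Aldoa did not pass (0.13, interval -0.13 to 0.39). Aldoc, the brain isoform, ranged from 5.89 to 10.6 FPKM with vehicle and from 5.63 to 9.51 with LPC.

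Lower glycolysis yields ATP and NADH. Gapdh, which encodes glyceraldehyde phosphate dehydrogenase and often serves as a reference gene, was the second most abundant of all 18046 genes. It was listed at 6289, 6022 and 6527 FPKM with vehicle and at 9272, 7867 and 8906 with LPC. Every LPC library was above every vehicle library, and the log2 change was 0.46 (SE 0.14, limma adjusted p = 0.0411). The call was near the threshold and was lost on leaving out vehicle replicate 1 (adjusted p = 0.168), 2 (0.192) or 3 (0.104) or LPC replicate 1 (0.146), and with quantile normalization (0.0884, log2 change 0.29) or with median centring (0.0678). Gapdh lies on chromosome 6 at 125161852 to 125166467.

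The enolases convert phosphoglycerate to phosphoenolpyruvate. Eno1, the ubiquitous form (chromosome 4, 150236708 to 150248879), was listed at 987, 939 and 1008 FPKM with vehicle and at 1510, 1285 and 1367 with LPC. It rose by 0.50 (SE 0.11, limma adjusted p = 0.00986), and missed the threshold without vehicle library 1 (adjusted p = 0.0558) or 2 (0.0589). Eno2 (chromosome 6, 124760053 to 124769673) was listed at 2.98, 3.08 and 3.16 FPKM with vehicle and at 1.65, 1.68 and 1.11 with LPC. Vehicle libraries were close to each other and all LPC libraries were lower; the log2 change was -0.72 (SE 0.11, adjusted p = 0.00171). Eno3, the muscle form, averaged 8.82 ± 1.28 and 10.5 ± 0.588 FPKM (SD, n = 3 each), short of the threshold. Since Eno1 supplied 98.7% or more of enolase FPKM in each library, the fall of Eno2 hardly moved the family's sum. Eno2 and Tpi1 lie 40.9 kb apart on chromosome 6 and moved in opposite directions.

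Pkm, which encodes the pyruvate kinase of most tissues, rose as well. It was listed at 1349, 1313 and 1369 FPKM with vehicle and at 1903, 1655 and 1731 with LPC, without overlap (log2 change 0.39, SE 0.11, limma adjusted p = 0.033). Leaving out vehicle replicate 1 (adjusted p = 0.14), 2 (0.154) or 3 (0.0875) or LPC replicate 1 (0.111) ended the call. The files give 1 value for the gene, so its M1 and M2 splice forms were not separated. The kinase gene Pgk1 (869 ± 67.6 and 974 ± 35.5 FPKM) and the mutase gene Pgam1 (291 ± 6.73 and 327 ± 26.1 FPKM) lie between Gapdh and the enolases in the pathway; each had a log2 change of 0.17 and did not pass. RSEM divides reads among near-identical sequences by estimate, and Gapdh, Eno1, Ldha, Pgk1, Pgam1, Tpi1 and Aldoa are known to have processed pseudogenes in mouse, so their levels are less certain.

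**Figure D2:**
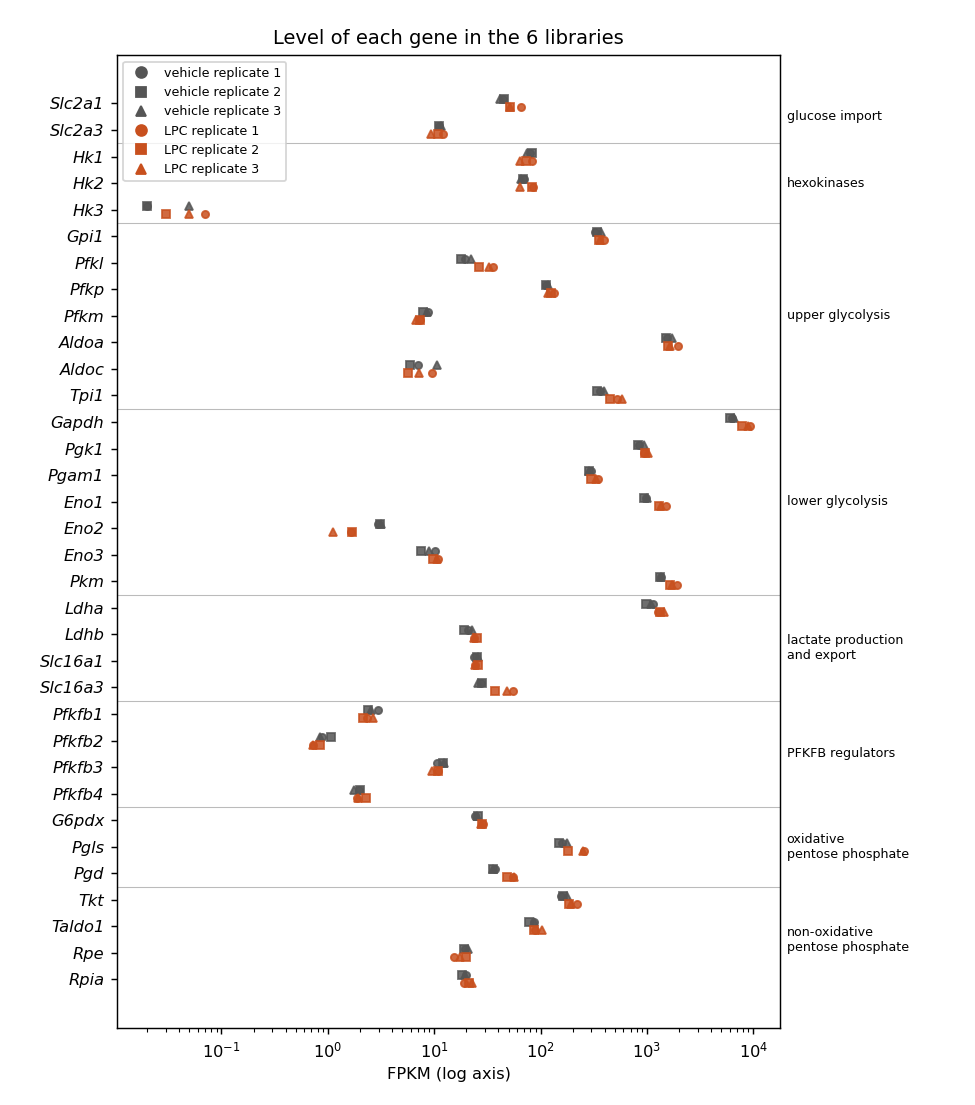
FPKM of each of the 34 genes (log x axis) in the 3 vehicle (grey) and 3 LPC (orange) libraries, by role in the pathway. Levels span from 0.02 FPKM for Hk3 to 9272 FPKM for Gapdh, and Gapdh, Aldoa, Pkm and Ldha lie farthest to the right.

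Lactate dehydrogenase reduces pyruvate to lactate, which leaves the cell through monocarboxylate transporters. Slc16a3 (chromosome 11, 120948484 to 120959000), which encodes the low-affinity exporter MCT4 of strongly glycolytic cells, had the largest rise of the members. It was listed at 27.4, 28.4 and 26.0 FPKM with vehicle and at 54.6, 36.9 and 48.8 with LPC. Vehicle libraries were tightly grouped, while LPC replicate 2 lay closer to them than the other LPC libraries did. The log2 change was 0.74 (SE 0.12, limma adjusted p = 0.00248), and it ranged from 0.62 to 0.90 when single libraries were left out. Slc16a1, which encodes the exporter MCT1, averaged 24.8 ± 1.05 FPKM in vehicle and 24.6 ± 0.902 in LPC libraries (SD, n = 3 each; log2 change -0.01, interval -0.20 to 0.17). With vehicle both exporters were therefore at a similar level, Slc16a3 at 50.2% to 53.6% of their sum, and with LPC Slc16a3 made up 59.0% to 69.3%.

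Ldha, the form of lactate dehydrogenase that predominates in glycolytic cells, was listed at 1145, 989 and 1093 FPKM with vehicle and at 1272, 1312 and 1456 with LPC. The groups did not overlap, but the change did not pass (log2 change 0.32, SE 0.11, limma adjusted p = 0.0675). It passed after removal of trends with GC share and length (adjusted p = 0.0107). Ldhb, the heart form, averaged 20.7 ± 1.71 and 24.1 ± 0.847 FPKM (log2 change 0.21, adjusted p = 0.136). Ldha remained at 98.0% to 98.4% of the family's FPKM in every library.

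**Figure D3:**
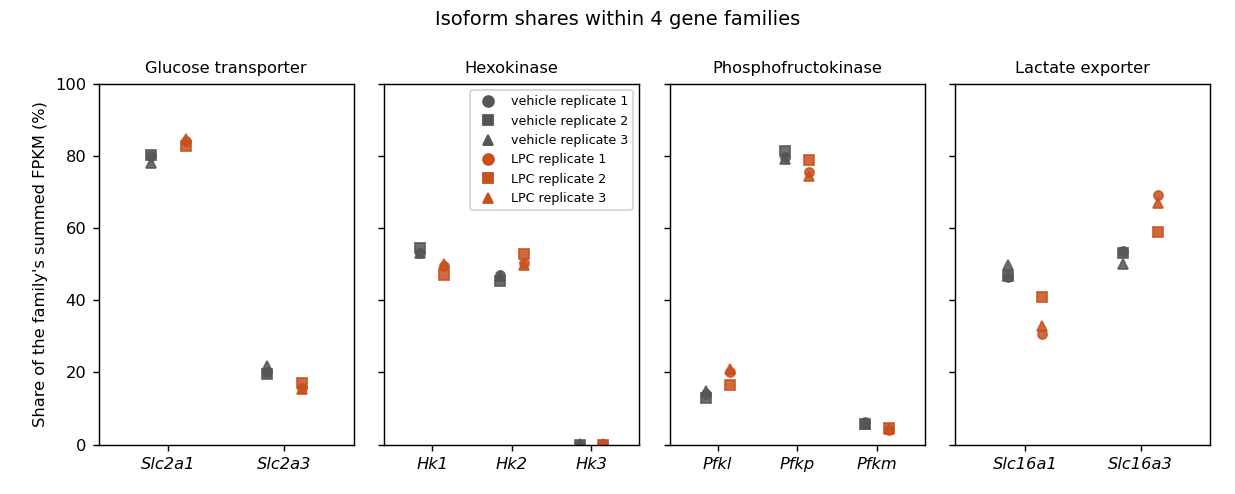
Share of each isoform in the summed FPKM of its family (y axis, percent) in each vehicle (grey) and LPC (orange) library. Drawn are the glucose transporters, hexokinases, phosphofructokinases and lactate exporters. Not drawn are the aldolase, lactate dehydrogenase and PFKFB shares, which overlapped between groups, and the enolase shares, which did not. Slc16a3 differed most, from a mean of 52.3% to 65.1%, and the shares of Slc2a1, Hk2 and Pfkl were also higher in every LPC library than in any vehicle library.

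The PFKFB enzymes make and break the fructose bisphosphate that activates phosphofructokinase. None of the 3 tested passed. Pfkfb3, the most abundant and the form with the strongest kinase activity, was listed at 10.6, 12.1 and 12.4 FPKM with vehicle and 10.8, 10.9 and 9.59 with LPC (log2 change -0.15, interval -0.36 to 0.06). Pfkfb1 was listed at 2.62 ± 0.272 and 2.38 ± 0.259 FPKM, and Pfkfb4 at 1.92 ± 0.131 and 2.01 ± 0.226 (SD, n = 3 each). Pfkfb2 reached 1 FPKM in vehicle replicate 2 alone (1.06) and was not tested. The summed level of the PFKFB genes was 16.4 to 17.6 FPKM with vehicle and 14.9 to 16.1 with LPC.

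The oxidative branch of the pentose phosphate pathway is encoded by G6pdx, Pgls and Pgd, of which the dehydrogenases G6pdx and Pgd make NADPH, and each of these genes was higher in every LPC library than in any vehicle library. Pgd (chromosome 4, 149149991 to 149166705), which encodes phosphogluconate dehydrogenase, was listed at 37.3, 35.4 and 35.9 FPKM with vehicle and at 55.4, 48.5 and 56.8 with LPC. It rose by 0.55 (SE 0.09, limma adjusted p = 0.00229) and passed in all 13 alternative fits. Pgls (chromosome 8, 71592184 to 71596267), which encodes the lactonase, was listed at 159, 149 and 177 FPKM with vehicle and at 254, 180 and 252 with LPC. LPC replicate 2 exceeded the highest vehicle library by little, and the log2 change was 0.48 (SE 0.13, adjusted p = 0.0257). The call for Pgls was lost on leaving out vehicle library 1 (adjusted p = 0.0885) or 2 (0.0808) or LPC replicate 1 (0.111), and under median centring (0.0575).

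G6pdx, which encodes glucose phosphate dehydrogenase, the rate-limiting enzyme of the branch, had the smallest difference of the 3. It was listed at 24.3, 25.6 and 25.1 FPKM with vehicle and at 28.7, 28.2 and 27.5 with LPC. Although the groups did not overlap, the log2 change of 0.16 did not pass (SE 0.08, interval -0.02 to 0.34, limma adjusted p = 0.206). Its retrogene G6pd2 was listed at 0 in all libraries.

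The non-oxidative branch links ribose phosphate back to glycolysis, and none of its 4 genes passed. Tkt, which encodes transketolase, was listed at 157, 161 and 178 FPKM with vehicle and at 219, 186 and 194 with LPC, again without overlap (log2 change 0.27, limma adjusted p = 0.0801). It passed without LPC replicate 2 (adjusted p = 0.0459). Taldo1, the transaldolase gene, was listed at 83.7 ± 5.76 and 92.5 ± 8.58 FPKM, the isomerase gene Rpia at 19.1 ± 0.768 and 21.0 ± 1.98, and the epimerase gene Rpe at 19.8 ± 1.06 and 17.6 ± 2.16 (SD, n = 3 each). The summed FPKM of the oxidative genes was 39.2% higher with LPC and that of the non-oxidative genes 14.8% higher; this difference between the branches was not tested.

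Summed over all 34 genes, the pathway made up 2.42% to 2.50% of each vehicle library's FPKM and 2.89% to 3.32% of each LPC library's. The sum was 14090 ± 615 FPKM with vehicle and 18250 ± 1304 with LPC, 29.5% higher (18.6% with quantile normalization), and it was 22.5% higher with Gapdh left out. Lower glycolysis was 34.5% higher, lactate production and export 25.6%, glucose import 21.8%, upper glycolysis 14.4% and hexokinases 2.33%. The sum of the PFKFB regulators went the other way, with a change of -9.28%. These sums follow the most abundant genes and carry no test. The members had a median GC share of 53.6% and a median length of 2682 bases in their longest coding transcript, against 50.1% and 3048 for all tested genes. Across 10009 tested genes, which are not independent, Pearson's r of the log2 change was 0.26 against GC share and -0.30 against log2 length; its part in the members' counts was not tested. After each library's trend with both was removed, 13 members rose and 2 fell: Hk2, Ldha, Pfkp and Tkt joined the rises and Pfkm the falls, and the median stayed at 0.16. Of all genes tested in that fit 11.4% rose and 11.4% fell, so that the background of rises was higher too.

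**Figure D4:**
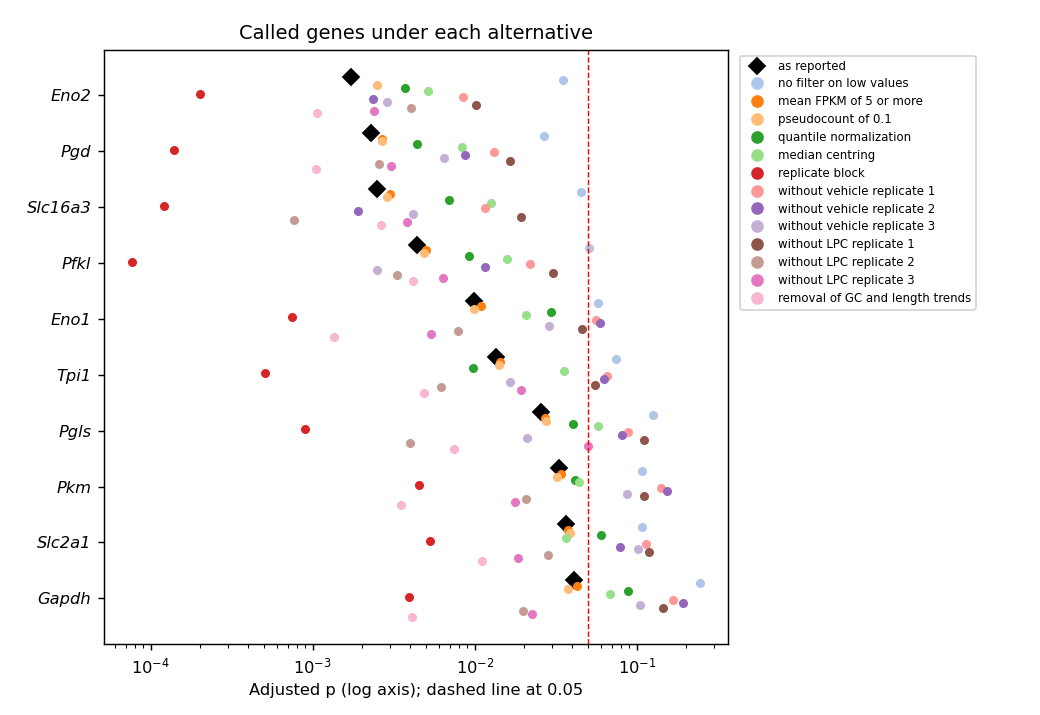
Adjusted p (log x axis) of the 10 called genes as reported (black diamonds) and in each alternative fit (coloured points); the dashed line marks 0.05. The points of Eno2, Pgd and Slc16a3 all lie left of the line, while those of Gapdh reach from 0.0039 to 0.244.

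A further list of 86 genes around the pathway covered other transporters and isoenzymes, gluconeogenesis, glycogen and galactose use, ribose phosphate use and regulators. Of these, 85 were in the files and 55 were tested: 8 rose, 5 fell and 42 did not pass, with a median log2 change of 0.01. Their share of rises, 14.5%, lay between the background of 5.82% and that of the members, and their share of falls, 9.09%, was close to the background of 7.91%. With no filter on low values, 1 gene rose (Trp53) and 3 fell (Galm, Prps1 and Ugp2). Of all genes tested in that fit 1.4% rose and 1.35% fell. The other glucose transporters and the tissue-restricted isoenzymes were mostly near 0: Hkdc1, Pklr and Ldhc were at most 0.04 FPKM in any library, and Eno1b, a copy of Eno1, at most 1.09.

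Bsg, which encodes basigin, the partner that brings MCT1 and MCT4 to the cell surface, averaged 234 ± 12 FPKM in vehicle and 306 ± 42.9 in LPC libraries (SD, n = 3 each). It rose by 0.38 on the log2 scale (limma adjusted p = 0.0367), though it passed in only 1 of the 6 fits that left out a library, the one without LPC replicate 2. Without the other libraries its adjusted p was 0.0695 to 0.148. Emb, which encodes the other partner, embigin, averaged 72.8 ± 2.40 and 74.8 ± 3.09 FPKM. Bpgm, which diverts an intermediate of lower glycolysis to bisphosphoglycerate, fell by 0.35 on the log2 scale (adjusted p = 0.0331), a call lost without any one of the vehicle libraries or LPC replicate 1 (adjusted p = 0.0626 to 0.16), and with quantile normalization (0.0666) or median centring (0.0591). Pgp, whose phosphatase clears side products of glycolysis, rose by 0.44 (adjusted p = 0.0202); leaving out vehicle library 1 (0.0569) or 2 (0.109) or LPC replicate 1 (0.0744) ended the call. None of the 4 tested genes of gluconeogenesis and glucose phosphatases passed; Pcx was nearest (0.33, adjusted p = 0.0522).

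The largest change in the list was that of Galk1, the galactokinase gene, on chromosome 11 at 116008357 to 116012719. It was listed at 54.2, 49.8 and 68.8 FPKM with vehicle and at 124, 79.7 and 122 with LPC, without overlap (log2 change 0.89, SE 0.16, limma adjusted p = 0.00368). Galm, which encodes the epimerase that supplies galactokinase with its substrate, fell from 4.46 ± 0.476 to 2.52 ± 0.194 FPKM (-0.63, adjusted p = 0.00242; SD, n = 3 each), so that genes of adjacent steps moved in opposite directions. Galt, which encodes the transferase that acts after galactokinase (5.56 ± 0.885 and 5.94 ± 0.766 FPKM), overlapped between groups. Of the glycogen genes, Gbe1 (branching enzyme, 0.35) and Pygb (phosphorylase, 0.37) rose and Ugp2, which makes the UDP-glucose for glycogen and glycans, fell by 0.35. Gbe1 passed only without LPC replicate 3 among the fits that left out a library (adjusted p = 0.0614 to 0.113 in the other fits). Pygb did not pass without vehicle library 1 (0.0893) or 2 (0.118) or LPC replicate 1 (0.0917), nor Ugp2 without any one of the vehicle libraries or LPC replicate 1 (0.0513 to 0.0953). Pmm1, a phosphomannomutase gene, rose by 0.37 (adjusted p = 0.047) and passed only without LPC replicate 2 among those fits (0.0544 to 0.149 in the others), and neither with quantile normalization (0.0666) nor with median centring (0.0789).

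Downstream of ribose phosphate, Prps1, which encodes the synthetase that activates ribose phosphate for nucleotide synthesis, averaged 67.0 ± 4.52 FPKM in vehicle and 47.3 ± 2.11 in LPC libraries (SD, n = 3 each). It fell by 0.49 on the log2 scale (limma adjusted p = 0.00411) and passed in all 13 alternative fits. Its paralog Prps2 did not pass (-0.08). Rbks, the ribokinase gene, rose from 5.26 ± 0.706 to 8.16 ± 1.43 FPKM (0.54, adjusted p = 0.0134) and passed in each fit that left out a library.

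Among 13 tested regulators, 1 rose and 1 fell, 7.69% each, which is near the background in both directions. Trp53, whose product p53 restrains glycolysis in many settings, was at 113, 107 and 107 FPKM with vehicle and 151, 135 and 140 with LPC and rose by 0.38 on the log2 scale (limma adjusted p = 0.0127), a call lost without vehicle library 1 (adjusted p = 0.0536) or 2 (0.069). Txnip, whose product limits glucose uptake, fell by 0.36 (adjusted p = 0.0331); the call was lost without vehicle library 1 (0.168) or 2 (0.0699) or LPC library 1 (0.0501) or 3 (0.0679), and with median centring (0.0567). The transcription factor genes that drive glycolytic genes did not pass: Hif1a was listed at 273, 303 and 269 FPKM with vehicle and 238, 262 and 203 with LPC (-0.27, adjusted p = 0.108), and Myc at 251, 270 and 242 with vehicle and 286, 317 and 265 with LPC (0.18, adjusted p = 0.221). Pdk1, a HIF target that holds pyruvate back from mitochondria, was at 14.5 ± 1.12 and 11.8 ± 0.618 FPKM (-0.27, adjusted p = 0.0712). Of the 13 tested regulators, 3 had a log2 change above 0 and 10 below, with a median of -0.10 (-0.04 for all tested genes). Every LPC library lay below every vehicle library for 4 of them, among them Hif1a and Pdk1, and above for 1. The shares of all tested genes were 20.7% and 13.7%.

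**Figure D5:**
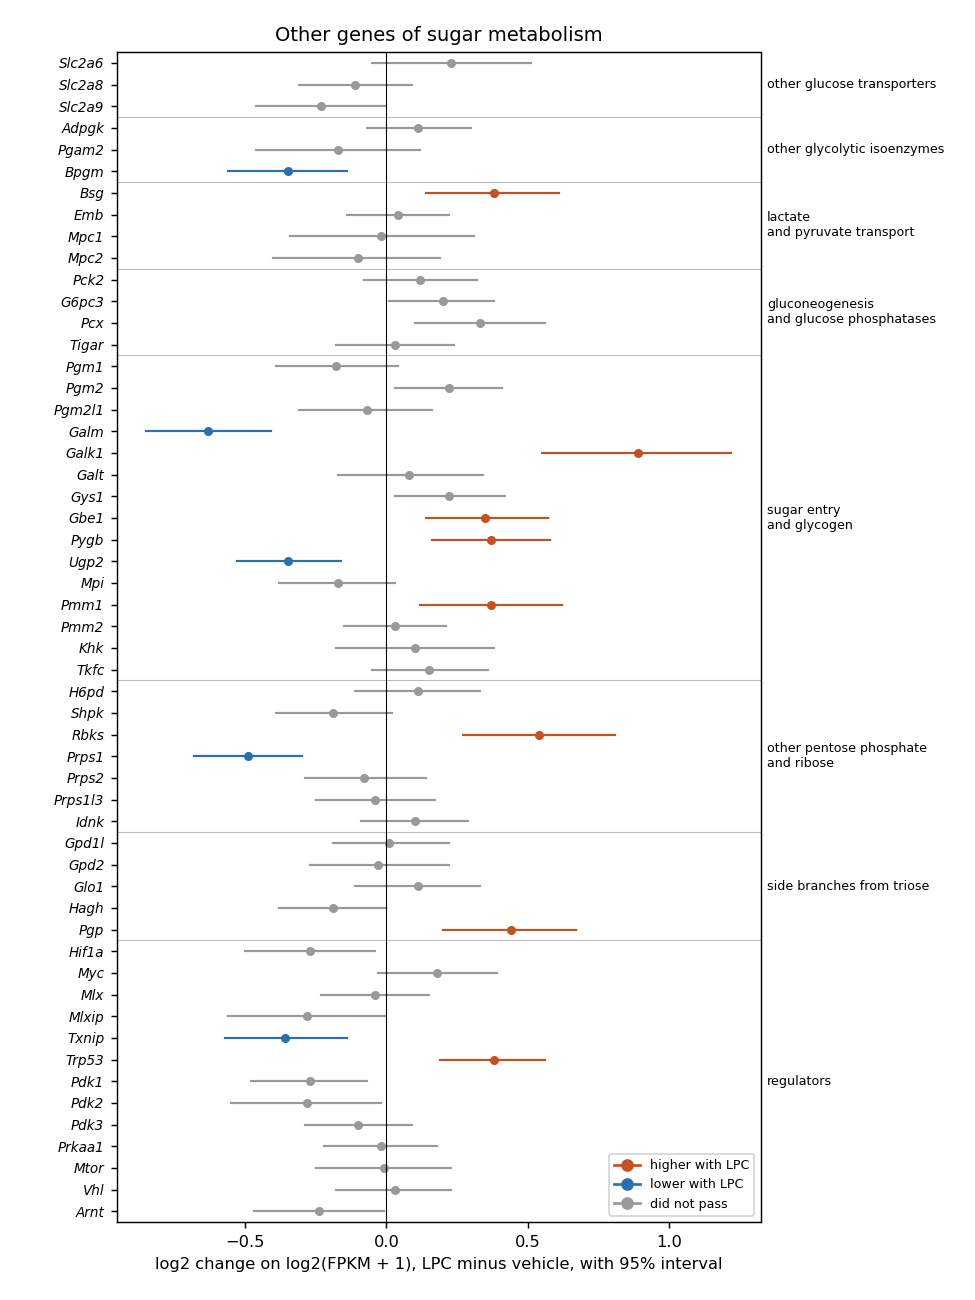
Log2 change (x axis, LPC minus vehicle on log2(FPKM + 1)) with its 95% interval for tested genes of the further list, by function, with 1 that did not pass left out; orange marks the 8 that rose, blue the 5 that fell and grey the rest. Galk1 lies farthest to the right at 0.89 and Galm farthest to the left at -0.63.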

How the data were processed

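Total RNA of 6 libraries was sequenced on a BGISEQ-500, aligned to GRCm38 with Bowtie2 and quantified with RSEM, per the labels' protocols; which versions were used is not given here. The authors deposited 1 file of FPKM values per library, rounded to hundredths, for 18046 genes. Low FPKM values of genes with 1 transcript came nearest to whole reads at 19.0 to 19.25 M reads, an estimate of depth. FPKM is relative to each library's total. The unit allows no count test. Symbols that had become dates (24) were restored by gene identifier.

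A gene needed an FPKM of at least 1 in 3 or more libraries, which 10138 did. Their log2(FPKM + 1) was tested with limma 3.58.1 (limma-trend, group as the single term) in R 4.3.3, with Benjamini-Hochberg adjustment over all of them, and the script was tested on simulated data. Intervals are 95%. All members are named, and every called gene of the further list; members and lists were chosen with earlier results of these data known. Alternatives were other filters, pseudocount and scaling, a block for replicate number, omission of single libraries and, added after seeing the data, removal of each library's trend with GC share and length (natural splines, GENCODE M21 transcripts). Some genes of the further list are not reported here. Positions and promoters come from RefSeq tables of GRCm38.p6.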

Additional observations from a re-analysis of the deposited data

How the results depend on the processing

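Of the 129 alternative values of the 10 called members, 98 kept their direction and side of the threshold, 31 kept the direction but did not pass, and none changed sign. Among the members that did not pass, Slc2a3, Aldoc, Slc16a1 and Pfkfb4 changed sign in 1 to 3 alternatives. With no filter on low values 236 of all genes were higher and 228 lower, 2 members rose (Pgd and Slc16a3), and 1 gene of the further list was higher and 3 lower; more genes were tested there. A mean FPKM of 5 or more left out Eno2, so that 0 members fell at an adjusted p under 0.05, and 2 genes fell over 2-fold. A pseudocount of 0.1 gave 35 rises and 22 falls over 2-fold, in place of 15 and 5, 1 of them a member, Eno2. Median centring left 3 falls in the further list, and quantile normalization gave a summed level of the members 18.6% higher; the cause was not tested. Removal of GC and length trends gave 1137 higher genes of all and 2 falls among members. Leaving out 1 library gave 225 to 809 higher and 288 to 1217 lower genes of all, and 3 to 10 rises among members. In the further list it gave 2 to 8 rises and 2 to 7 falls. Of all genes, 6 to 10 fell over 2-fold. Fewer samples give less power. Without LPC replicate 2, 809 genes were higher and 1217 lower, against 590 and 802 with all libraries. The cause of these changes was not tested.

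The labels do not say whether equal replicate numbers pair the libraries, and the main fit did not use them. The deviations of same-numbered libraries correlated at 0.018, 0.562 and 0.406 for replicates 1, 2 and 3. Vehicle replicates 2 and 3 each correlated best with the LPC library of the same number, and crossed they correlated at -0.498 and -0.447. Vehicle replicate 1 correlated best with LPC replicate 3 (0.065). Whether the libraries were paired was not tested. With the replicate block 1180 of all tested genes were higher (11.6%) and 1661 lower (16.4%), in place of 5.82% and 7.91%. In that fit 12 members rose (Eno3, Ldha and Tkt were added), 1 fell, and 9 genes of the further list fell.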

Other observations

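The abundant members leaned one way. Of the 12 members with a mean of 100 FPKM or more, a bound chosen after the values were seen, 12 had a log2 change above 0, from 0.09 for Gpi1 to 0.50 for Eno1, and 5 of them passed. Of all 813 genes at that level, 509 had a change above 0 and 61 rose (7.5%). The 20 tested members below that bound had 11 changes above 0 and 9 below, and 4 of them rose (20%). They held both the largest rise, Slc16a3, and the fall, Eno2. Of all 9325 tested genes below that bound, 3721 had a change above 0 and 5604 below, and 529 rose (5.67%).

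Of the members, 7 lie on chromosome 6, more than on any other chromosome. Tpi1, Gapdh and Eno2, which passed, and Slc2a3, Hk2, Ldhb and Rpia, which did not, are among them. Eno2, Tpi1 and Gapdh lie in that order, 40.9 kb and 348 kb apart, with log2 changes of -0.72, 0.49 and 0.46.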
